A study of Homo sapiens with 15 samples.

Results

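The first day of differentiation of H9, a long-established line of human embryonic stem cells, was described by setting 3 RNA-seq libraries of day 1 against 3 libraries of day 0, which make 6 of the 15 libraries of a time course towards definitive endoderm. The 6 libraries were chosen by their labelled day and by no measured value, and the libraries of each day carry the replicate numbers 1, 2 and 4. Day 1 cells had received activin A and CHIR99021 for 24 hours in Advanced RPMI 1640 as base medium. Activin A is a secreted ligand that signals as Nodal does, and CHIR99021 inhibits the kinase GSK3 and so activates Wnt signalling. Day 0 cells were undifferentiated H9 cells kept in E8, a defined maintenance medium. The medium changed together with the treatment, so the effects of activin A, of CHIR99021 and of the medium cannot be told apart. The labels do not tie the libraries of a day to separate cultures, and p-values therefore measure only the spread between these samples, which may be technical.

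In the embryo, epiblast cells leave pluripotency as they enter the primitive streak, where Nodal, Wnt, BMP and FGF signals meet and where mesoderm and endoderm arise. Cells of the streak switch on T-box, homeobox and GATA transcription factors, lose epithelial contacts and migrate, and the level and duration of the signals set whether they become mesoderm or endoderm. Many of the signals induce their own antagonists, so ligands and their inhibitors are often expressed together there.

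Of 23346 gene symbols in the count table, 17401 passed the filter on low counts and were tested. Total counts were 72266892, 69264028 and 100685830 in day 1 replicates 1, 2 and 4, against 95094932, 105500378 and 98853486 in day 0 replicates 1, 2 and 4. Levels below are counts scaled to library size (CPM, with TMM factors), and fold changes are day 1 over day 0 on the log2 scale with their standard error (SE). By edgeR's quasi-likelihood test with Benjamini-Hochberg adjustment, 956 genes (5.49% of those tested) were higher and 850 (4.88%) were lower on day 1 at an adjusted p under 0.05, and only these are called higher or lower, or said to rise or fall. Leaving out day 0 replicate 1 gave 624 higher and 541 lower genes, and leaving out day 0 replicate 4 gave 1484 higher. Leaving out day 1 replicate 1, 2 or 4 gave 380, 401 or 452 lower genes. Day 0 libraries differed more among themselves: the median SD of log2 CPM over genes was 0.225 on day 1 and 0.521 on day 0. The share of counts on cytosolic ribosomal protein genes was 4.12%, 2.70% and 4.07% in day 1 replicates 1, 2 and 4, and 7.44%, 2.16% and 4.79% in day 0 replicates 1, 2 and 4. The median log2 fold change over all genes tested was -0.02. Of the 17401 genes tested, 2757 had every day 1 library above every day 0 library, and 2451 had every one below. Among called genes this held for 953 of the 956 higher and 836 of the 850 lower. A lack of overlap was thus common among genes that were not called.

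The change was large for many genes. Among the 956 genes that were higher, 640 exceeded a 4-fold and 281 a 16-fold change, and among the 850 that were lower the counts were 491 and 110. Transcription factor lists held 388 tested genes, of which 84 (21.6%) were higher and 39 (10.1%) lower, with a median log2 fold change of 0.49. Lists of secreted proteins held 388 tested genes, with 67 (17.3%) higher and 32 (8.25%) lower. Lists of receptors and adhesion molecules held 399, with 60 (15.04%) higher and 28 (7.02%) lower. Metabolic lists held 479, with 14 (2.92%) higher and 37 (7.72%) lower, and a median of -0.19. With each of the 6 libraries left out in turn, the transcription factor counts ran from 62 to 80 higher and from 25 to 43 lower, with 25 lower without day 1 replicate 1 or 2. The secreted counts ran from 51 to 84 higher and from 17 to 29 lower, and the receptor counts from 42 to 66 higher and from 10 to 29 lower; the lower counts were smallest without day 1 replicate 1, and the secreted one equally so without day 1 replicate 2. The metabolic counts ran from 10 to 19 higher and from 15 to 55 lower: leaving out day 1 replicate 1, 2 or 4 gave 17, 15 or 21 lower genes, and leaving out day 0 replicate 1 or 4 gave 16 or 55. In bulk RNA, fewer cells with a transcript and less of it per cell cannot be told apart.

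**Figure D1:**
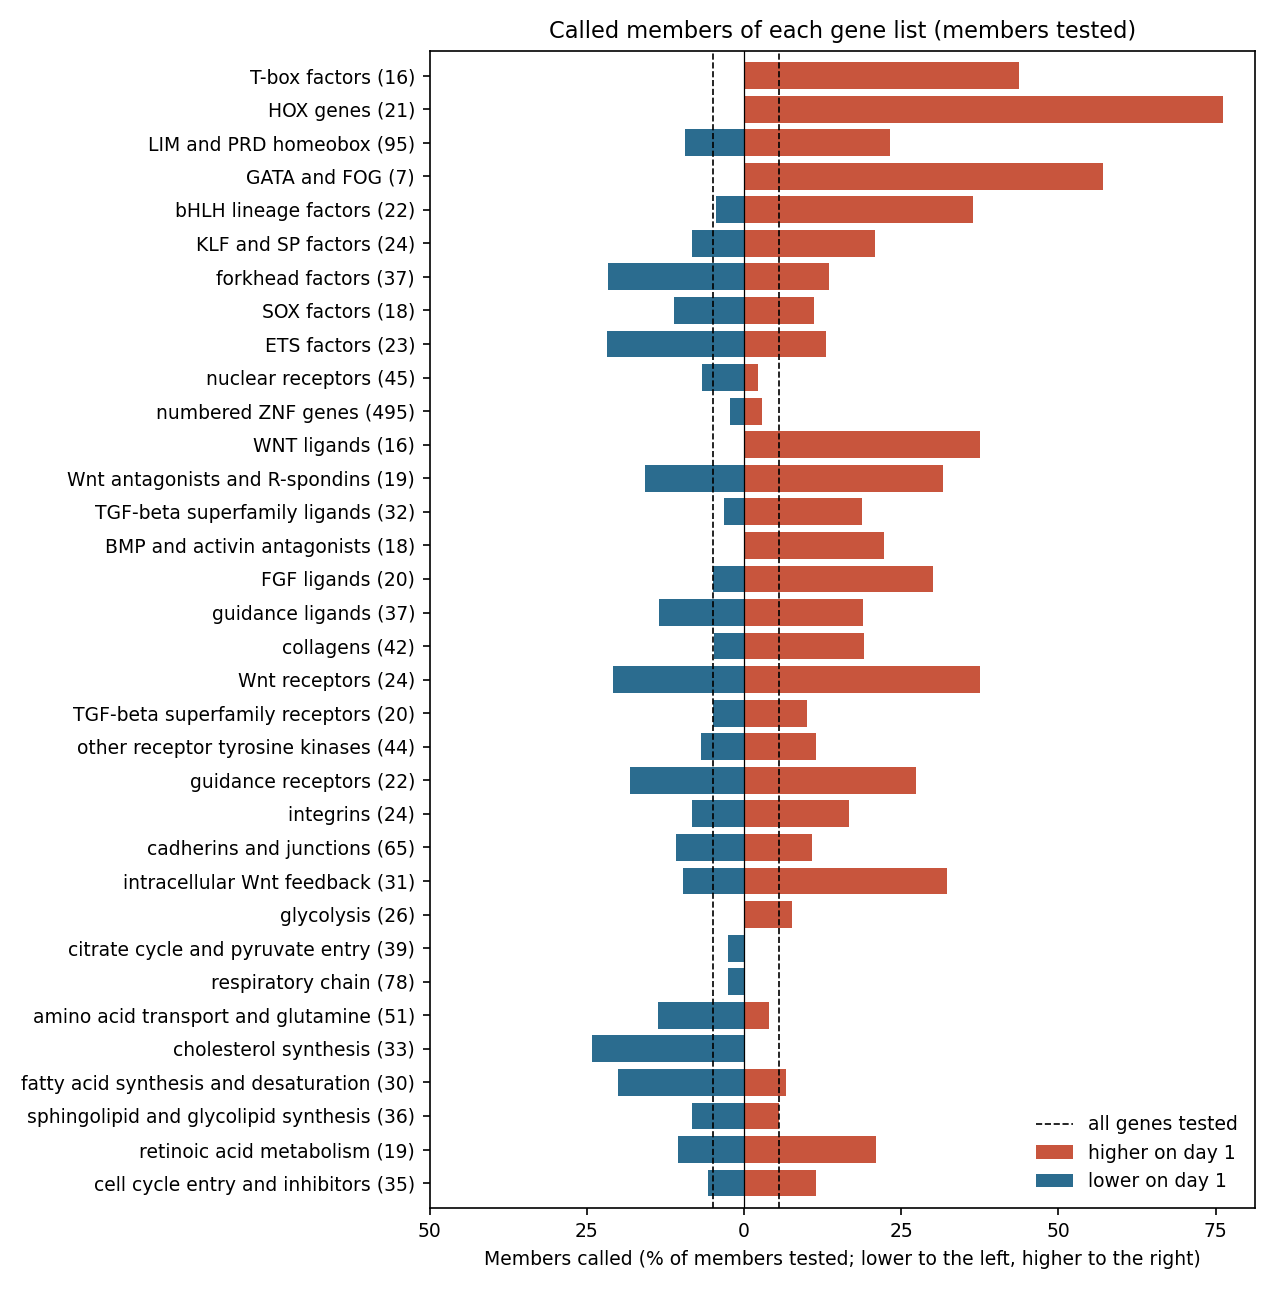
Percentage of the tested members of each gene list that were called higher on day 1 (bars to the right) or lower on day 1 (bars to the left), with the number of tested members in parentheses and dashed lines at 5.49% and 4.88%, the shares over all genes tested. Bars count members that passed the filter on low counts, which a gene could pass through day 1 alone. Bars to the right run past 5.49% for HOX, GATA and T-box factors, and the bar of the cholesterol list runs to the left only.

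The labels were first set against genes that define each state. T, the T-box factor brachyury that marks the streak, had 462, 364 and 542 CPM on day 1, against 0.497, 0.636 and 0.381 CPM on day 0. MIXL1, a homeobox factor of the streak, had 1219.5, 1213 and 1158 CPM on day 1, against 2.30, 1.93 and 2.68 CPM on day 0. SOX2, a factor that holds cells in pluripotency, had 1.69, 0.617 and 1.14 CPM on day 1, against 313, 157 and 132 CPM on day 0. All libraries of a day lay on the same side for each of these genes, and the days did not overlap. FOXD3, a forkhead repressor of pluripotent cells and later of neural crest, had 0.139, 0.147 and 0.235 CPM on day 1, against 68.3, 34.7 and 34.5 CPM on day 0, with a log2 fold change of -8.01 (SE 0.68) and an adjusted p of 2.46e-06. POU5F1, the gene of OCT4, was still present in every day 1 library at 480.5, 324 and 430.2 CPM, against 319, 262 and 765 CPM on day 0, with overlapping days (adjusted p = 0.953). SOX17, which marks definitive endoderm, stood at 0.277, 0.676 and 1.01 CPM on day 1, against 0.828, 0.695 and 1.01 CPM on day 0, also with overlap (adjusted p = 0.704).

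**Figure D2:**
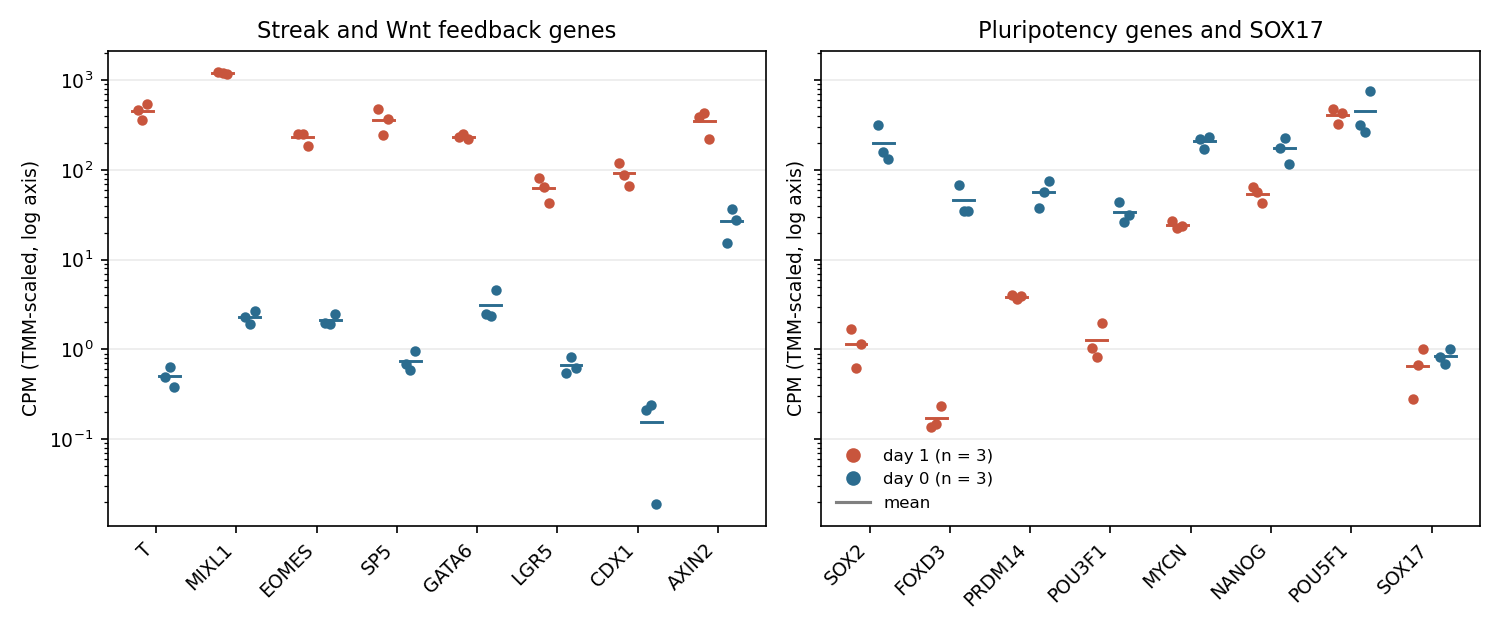
CPM on a log axis of streak and Wnt feedback genes (left) and of pluripotency genes with SOX17 (right), a point per library and a line at the mean, day 1 to the left of day 0 within each gene. Every day 1 point of T, from 364 to 542 CPM, lies above every day 0 point, from 0.381 to 0.636 CPM, whereas the days overlap for POU5F1 and SOX17.

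The promoters of genes at both ends of the change were read from RefSeq (GRCh38.p14, 250 bases before to 50 after the start) and searched on both strands for CTTTGAT and CTTTGTT, words that TCF/LEF factors of the Wnt pathway bind, for TGTGGATT, a word bound by FOXH1, a partner of activin-activated SMADs, for the T-box word TCACACCT and for the octamer ATGCAAAT. The promoters shown were picked by gene name and not by their words. MIXL1 and SP5, a zinc finger factor induced by Wnt signals, were the 2 genes among 722 higher genes with a promoter that held both CTTTGAT and TGTGGATT. That pair was found in 15 of 27305 promoters (0.0549%). Of 628 lower genes with a promoter, 0 held the pair. T held none of the words in this window, and FOXD3 held CTTTGTT. Matched words are in capitals, the strand is that of the gene, and the windows are chr1:226223414-226223713 on the plus strand for MIXL1, chr2:170715087-170715386 on the plus strand for SP5, chr6:166168606-166168905 on the minus strand for T and chr1:63322317-63322616 on the plus strand for FOXD3.
MIXL1: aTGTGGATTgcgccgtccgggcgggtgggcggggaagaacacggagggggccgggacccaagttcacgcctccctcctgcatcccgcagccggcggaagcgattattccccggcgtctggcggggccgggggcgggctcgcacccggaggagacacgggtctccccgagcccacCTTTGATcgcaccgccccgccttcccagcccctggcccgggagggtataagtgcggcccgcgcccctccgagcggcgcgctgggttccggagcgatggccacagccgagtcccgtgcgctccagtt
SP5: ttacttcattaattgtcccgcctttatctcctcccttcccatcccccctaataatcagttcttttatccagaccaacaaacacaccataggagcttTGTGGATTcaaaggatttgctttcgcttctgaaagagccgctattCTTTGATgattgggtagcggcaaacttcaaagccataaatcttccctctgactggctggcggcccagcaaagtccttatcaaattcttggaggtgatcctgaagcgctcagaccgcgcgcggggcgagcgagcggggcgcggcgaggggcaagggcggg
T: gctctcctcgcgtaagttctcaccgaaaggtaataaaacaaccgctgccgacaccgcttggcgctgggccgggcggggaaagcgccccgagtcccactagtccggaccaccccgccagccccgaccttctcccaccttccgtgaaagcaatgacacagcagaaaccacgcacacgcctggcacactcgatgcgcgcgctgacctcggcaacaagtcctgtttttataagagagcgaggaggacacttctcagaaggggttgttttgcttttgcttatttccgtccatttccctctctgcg
FOXD3: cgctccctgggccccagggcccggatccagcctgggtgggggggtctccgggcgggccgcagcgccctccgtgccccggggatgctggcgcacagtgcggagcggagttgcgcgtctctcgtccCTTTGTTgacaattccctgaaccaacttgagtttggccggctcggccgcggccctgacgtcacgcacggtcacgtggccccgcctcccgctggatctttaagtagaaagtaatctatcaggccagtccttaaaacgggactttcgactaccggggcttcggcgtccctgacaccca

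Counted from its own first base, CTTTGAT lay at -76 and TGTGGATT at -249 from the start in MIXL1, and at -109 and -154 in SP5. The CTTTGTT of FOXD3 lay at -126. SOX2 held none of the words in its window. CTTTGAT occurred in 2.64% of all 27305 promoters, in 1.504% of those of tested genes, in 2.63% of those of higher genes and in 1.43% of those of lower genes, and no share was tested. TGTGGATT occurred in 0.798% of all promoters, in 0.423% of those of tested genes, in 0.831% of those of higher genes and in 0.478% of those of lower genes. CTTTGTT was in 3.74% of higher and 4.30% of lower genes' promoters, TCACACCT in 0.415% and 0.955% and ATGCAAAT in 1.52% and 1.59%, beside 3.62%, 0.763% and 1.39% of tested genes' promoters and 5.28%, 0.982% and 1.80% of all promoters. SP5 itself had 479, 243 and 365 CPM on day 1, against 0.686, 0.596 and 0.951 CPM on day 0 (log2 fold change 8.92, SE 0.79). Among tested genes the pair was in 5 promoters, and the other 3 genes that held it were not called. MIXL1 and SP5 were taken from the higher genes, so their rise says nothing of the pair. A match in such a window is a description of letters and not a binding site.

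Transcription factors that rose included regulators of streak and mesoderm. Of 16 tested T-box genes, 7 (43.75%) rose and 0 fell (5 to 6 rose with each library left out). Of 21 streak factors 17 (81.0%) rose and 1 (4.76%) fell (15 to 17 rose and 0 to 1 fell). Over all genes tested, 5.49% rose and 4.88% fell. EOMES, which the streak needs to form endoderm in the mouse, had 250.5, 252 and 186 CPM on day 1, against 1.96, 1.93 and 2.47 CPM on day 0. TBX3, a factor of mesoderm and of early endoderm, had 67.2, 92.7 and 56.2 CPM on day 1, against 1.87, 1.05 and 0.609 CPM on day 0, and rose by 5.94 on the log2 scale (SE 0.88). For both genes the days lay far apart. EVX1, a homeobox factor of the posterior streak, had 131, 62.4 and 116 CPM on day 1, against 0.118, 0.179 and 0.0761 CPM on day 0. The caudal factors CDX1 and CDX2, which turn on posterior HOX genes, rose by 9.19 (SE 0.79) and 9.46 (SE 1.35) on the log2 scale, and CDX1 had 120.5, 87.2 and 67.0 CPM on day 1, against 0.213, 0.238 and 0.0190 CPM on day 0. MSX1, a homeobox target of BMP signals, reached 239, 247 and 162 CPM on day 1, against 0.828, 0.616 and 0.228 CPM on day 0. Every library of day 1 was above every library of day 0 for these genes.

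GATA6 and GATA4, factors shared by endoderm and cardiac mesoderm, were both higher. GATA6 had 231, 248 and 218 CPM on day 1, against 2.51, 2.36 and 4.62 CPM on day 0, and GATA4 had 95.4, 64.4 and 50.8 CPM on day 1, against 1.47, 1.25 and 2.45 CPM on day 0. Regulators of mesoderm were higher too. FOXC1, a forkhead factor of paraxial mesoderm, had 33.8, 46.9 and 31.8 CPM on day 1, against 0.402, 0.437 and 0.362 CPM on day 0, and FOXF1, its counterpart in lateral plate mesoderm, had 14.2, 19.7 and 18.1 CPM on day 1, against 0.0473, 0.278 and 0.0571 CPM on day 0. LMO2, a partner of blood and endothelial factors, rose by 5.02 on the log2 scale (SE 0.41), to 41.4, 45.7 and 40.0 CPM on day 1, against 1.63, 0.993 and 1.27 CPM on day 0. MSGN1, a basic helix-loop-helix (bHLH) regulator of presomitic mesoderm, had 23.5, 24.2 and 25.6 CPM on day 1, while day 0 replicates 1 and 2 were at a count of 0 and day 0 replicate 4 at 0.0571 CPM. Of 22 tested lineage genes of the bHLH family, 8 (36.4%) rose and 1 (4.55%) fell, beside 5.49% and 4.88% of all genes. With each library left out, 7 to 8 rose and 0 to 2 fell. HAND1, of lateral mesoderm and amnion, rose by 3.77 (SE 0.69). PAX2, of intermediate mesoderm, had 2.55, 1.59 and 1.41 CPM on day 1 and a count of 0 in all day 0 libraries. Set against a floor of 3 counts per day 0 library, PAX2 was 61.4-fold higher. Among zinc finger factors, SP6 (log2 fold change 5.87, SE 1.14), SP8 (3.32, SE 0.40) and KLF5 (3.83, SE 0.34) rose beside SP5. The 495 tested genes with a plain ZNF number moved little, with 14 (2.83%) higher and 11 (2.22%) lower, shares below the background. Counts were 8 to 23 higher and 4 to 26 lower with each library left out, the largest without day 0 replicate 4 and the smallest higher count without day 0 replicate 1 or day 1 replicate 1 or 2. Among those that rose were ZNF503, a corepressor of the NET family, which had 32.2, 18.4 and 17.3 CPM on day 1, against 0.308, 0.0993 and 0.285 CPM on day 0, and its paralog ZNF703, which had 47.2, 32.9 and 23.8 CPM on day 1, against 0.876, 0.794 and 1.03 CPM on day 0.

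HOX genes, which give cells their position along the body axis, were with few exceptions near 0 on day 0. Of 39 genes in the list, 21 passed the filter on low counts. Of these 21, 16 (76.2%) rose and 0 fell, beside 5.49% and 4.88% of all genes. The median log2 fold change was 5.71, and 12 to 14 rose with each library left out in turn. The filter could be passed through day 1 alone, so members that passed had in part to differ, and the count leaves out the 18 genes with too few counts. HOXB3 had 6.43, 4.99 and 3.29 CPM on day 1, against 0.166, 0.0397 and 0.0761 CPM on day 0, and HOXB4 had 1.94, 1.73 and 0.941 CPM on day 1, against 0.0473, 0.0199 and 0.0190 CPM on day 0. All day 1 libraries were above all day 0 libraries for these genes. HOXB9, from the 5' part of the B cluster, had 6.21, 11.01 and 2.03 CPM on day 1, with the lowest value in replicate 4, against 0.0237, 0.0199 and 0 CPM on day 0. HOXB6 had 2.19, 1.498 and 0.471 CPM on day 1 and a count of 0 in all day 0 libraries, 46.0-fold higher against the floor of 3 counts. HOXD11 stood apart, with 2.15 CPM in day 0 replicate 4 and at most 0.0237 CPM in the other day 0 libraries, against 0.0277, 0 and 0.0905 CPM on day 1, and was not called.

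**Figure D3:**
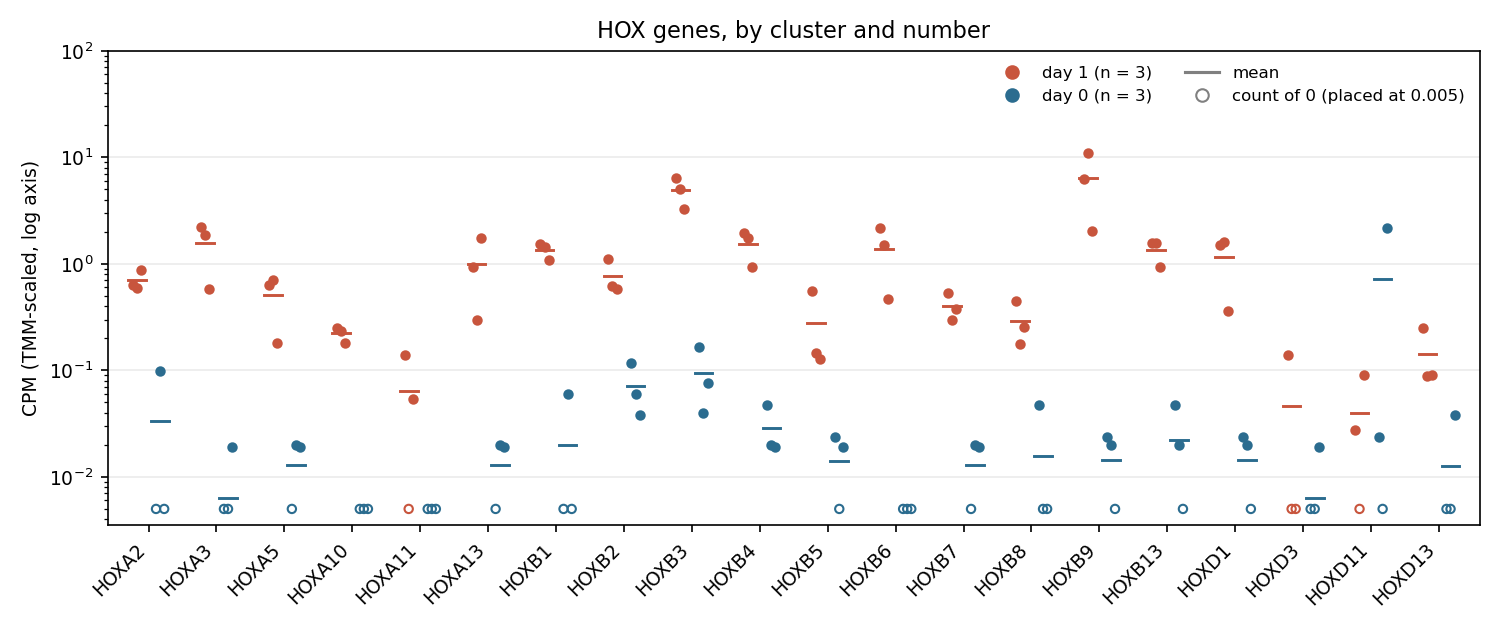
CPM on a log axis of 20 of the HOX genes tested, by cluster and number, a point per library and a line at the mean, day 1 to the left of day 0, with counts of 0 as open circles at 0.005. HOXB9 reaches 2.03 to 11.01 CPM on day 1 and at most 0.0237 CPM on day 0, most of the genes drawn stay below 2 CPM, and HOXD11 is high in a single day 0 library.

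Transcription factors that fell included pluripotency genes and anterior neural genes. Of 30 tested pluripotency factors, 0 rose and 12 (40%) fell, beside 5.49% and 4.88% of all genes. The median log2 fold change was -1.40, and 0 to 1 rose and 10 to 13 fell with each library left out. PRDM14, a repressor that guards human pluripotency, had 4.08, 3.61 and 3.91 CPM on day 1, against 37.3, 56.6 and 75.3 CPM on day 0. MYCN, a growth-promoting MYC family factor, had 26.9, 22.7 and 23.8 CPM on day 1, against 219, 173 and 232 CPM on day 0, and fell by 3.09 on the log2 scale (SE 0.42). MYC itself had 69.7, 50.2 and 38.7 CPM on day 1, against 137, 86.0 and 108 CPM on day 0, and was not called (adjusted p = 0.257). NANOG lay at 63.7, 56.7 and 42.5 CPM on day 1, against 174, 229 and 118 CPM on day 0, with no overlap, but missed the threshold (log2 fold change -1.68, SE 0.59, adjusted p = 0.0868). POU3F1, an octamer factor of the epiblast and forebrain, had 1.03, 0.822 and 1.97 CPM on day 1, against 43.8, 26.4 and 31.1 CPM on day 0. SALL2 (-2.58, SE 0.34) and NR5A2 (-2.94, SE 0.35), a nuclear receptor that can drive OCT4 expression in the mouse, also fell on the log2 scale. SALL4, a paralog of SALL2, had 272, 199 and 199 CPM on day 1, against 118, 195 and 246 CPM on day 0, with overlap and no call.

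Of 26 tested neural and surface ectoderm genes, 0 rose and 5 (19.2%) fell, beside 5.49% and 4.88% of all genes. With each library left out, 0 to 1 rose and 4 to 5 fell. HESX1, a homeobox repressor of the anterior neural plate, had 0.582, 0.264 and 0.815 CPM on day 1, against 30.8, 9.65 and 4.45 CPM on day 0, and its log2 fold change of -4.74 (SE 0.71) was -3.65 without day 0 replicate 1. HES3, a bHLH repressor, had a count of 0 in every day 1 library and 3.15, 2.30 and 9.48 CPM on day 0, 130-fold lower against the floor of 3 counts. FOXJ1, the forkhead regulator of motile cilia, had 0.0555, 0.206 and 0.0181 CPM on day 1, against 10.1, 7.59 and 14.3 CPM on day 0. The forkhead factor FOXO1, a target of insulin signalling, fell by 1.69 on the log2 scale (SE 0.34), and the Hedgehog effector GLI3 by 1.99 (SE 0.32).

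Some genes of DNA methylation and polycomb complexes changed. Of 37 tested, 2 (5.41%) rose and 4 (10.8%) fell (2 to 3 rose and 4 to 6 fell with each library left out), beside 5.49% and 4.88% of all genes, with a median log2 fold change of -0.01. DNMT3B, the de novo DNA methyltransferase of pluripotent cells, had 673, 609.7 and 640.2 CPM on day 1, against 1388, 1785 and 1948 CPM on day 0, and DNMT3A had 111, 109 and 92.7 CPM on day 1, against 229, 209 and 209.5 CPM on day 0. JARID2, a DNA-binding subunit of polycomb repressive complex PRC2, fell by 2.52 on the log2 scale (SE 0.29), to 82.7, 95.1 and 99.0 CPM on day 1, against 379, 637 and 575 CPM on day 0. The paralogs PHC1 and PHC2, subunits of PRC1, moved in opposite directions. PHC1 had 78.1, 114 and 98.5 CPM on day 1, against 205, 547 and 411 CPM on day 0, and PHC2 had 63.5, 79.7 and 48.2 CPM on day 1, against 11.4, 15.7 and 16.9 CPM on day 0. EPOP, listed in the table as C17orf96 and known as a PRC2-associated protein, rose by 2.85 on the log2 scale (SE 0.41). TERF1, a telomere-binding protein that is abundant in pluripotent cells, had 87.9, 90.7 and 78.9 CPM on day 1, against 1704, 1530.1 and 501 CPM on day 0.

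Some ligand, antagonist, receptor, TCF and feedback genes of the Wnt pathway changed. Of 16 tested WNT ligand genes, 6 (37.5%) rose and 0 fell, beside 5.49% and 4.88% of all genes. The counts of 6 and 0 stood whichever library was left out. WNT3, whose loss in the mouse prevents streak formation, had 58.5, 25.5 and 55.3 CPM on day 1, against 0.118, 0.139 and 0.533 CPM on day 0, and WNT3A had 6.74, 3.70 and 6.55 CPM on day 1, against 0.0237, 0.0199 and 0.0381 CPM on day 0. The ligands WNT5A and WNT5B, which signal mainly without beta-catenin, rose by 3.92 (SE 0.46) and 6.15 (SE 0.70, 6.85 without day 0 replicate 4) on the log2 scale. WNT5B reached 258, 185 and 206 CPM on day 1, against 1.75, 2.07 and 5.31 CPM on day 0. WNT8A was at 1.55, 2.79 and 2.50 CPM on day 1 and at 2 counts in all on day 0. WLS, the carrier that every WNT protein needs for secretion, had 413, 369 and 362 CPM on day 1, against 5.80, 5.72 and 4.51 CPM on day 0, with a log2 fold change of 6.16 (SE 0.31) and an adjusted p of 3.39e-08.

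Secreted Wnt inhibitors moved in both directions. DKK1 and DKK4, which block the LRP coreceptors and are induced by Wnt, rose. DKK4 had 1158, 1039 and 1792 CPM on day 1, against 1.21, 1.29 and 1.43 CPM on day 0. NOTUM, an enzyme that removes the lipid of WNT proteins, had 58.5, 39.1 and 40.8 CPM on day 1, against 0.189, 0.179 and 0.304 CPM on day 0. SFRP1, a decoy that binds WNT proteins, had 26.7, 32.0 and 28.5 CPM on day 1, against 1102, 1563 and 1157 CPM on day 0, and fell by 5.45 on the log2 scale (SE 0.55). SFRP2 had 184, 152 and 173 CPM on day 1, against 1053, 728 and 608 CPM on day 0, and WIF1, a further WNT-binding inhibitor, had 0.305, 0.0881 and 0.199 CPM on day 1, against 3.43, 2.80 and 3.23 CPM on day 0. In the list of 19 antagonists and R-spondins, 6 (31.6%) rose and 3 (15.8%) fell, beside 5.49% and 4.88% of all genes. With each library left out, 6 to 7 rose and 3 fell. All 3 that were called lower bind WNT proteins directly. RSPO3, which potentiates Wnt signals through LGR receptors, had 87.5, 90.7 and 90.3 CPM on day 1, against 0.473, 0.556 and 0.152 CPM on day 0, and was not called by DESeq2. Its receptor gene LGR5 had 80.8, 63.7 and 42.8 CPM on day 1, against 0.544, 0.834 and 0.628 CPM on day 0. RNF43, the ligase that clears Frizzled receptors, rose by 4.41 (SE 0.50).

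Frizzled receptors and ROR coreceptors changed in opposite directions within their families. Of 24 tested Wnt receptor genes, 9 (37.5%) rose and 5 (20.8%) fell, beside 5.49% and 4.88% of all genes. With each library left out, 8 to 11 rose and 3 to 5 fell. The lower count was 3 in every case but that without day 0 replicate 4. FZD7, the main Frizzled of human pluripotent cells, had 105, 100.01 and 104 CPM on day 1, against 908, 617 and 686 CPM on day 0. FZD10 had 24.3, 11.4 and 16.1 CPM on day 1, against 0.473, 0.218 and 0.457 CPM on day 0, and FZD4 had 66.1, 98.0 and 92.6 CPM on day 1, against 13.7, 25.1 and 15.96 CPM on day 0. FZD1 rose by 2.03 (SE 0.36). ROR2, a receptor of WNT5A, had 118, 86.7 and 103 CPM on day 1, against 3.29, 4.11 and 9.44 CPM on day 0, whereas its paralog ROR1 had 13.5, 13.3 and 15.4 CPM on day 1, against 41.3, 85.8 and 85.4 CPM on day 0. FZD2 and FZD5 were also called lower, but the call of FZD2 was lost whichever library of the 2 days was left out, and that of FZD5 in each case but the one without day 0 replicate 4 (highest adjusted p 0.132 and 0.162).

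The nuclear partners of beta-catenin were divided as well. TCF7, the gene of TCF1, had 98.7, 81.7 and 88.8 CPM on day 1, against 3.53, 4.45 and 5.86 CPM on day 0, and LEF1 had 106, 83.4 and 78.9 CPM on day 1, against 2.13, 1.55 and 0.704 CPM on day 0. TCF7L1, the gene of TCF3, which represses its targets in pluripotent cells, had 9.93, 6.99 and 8.11 CPM on day 1, against 117, 110.2 and 143 CPM on day 0, and TCF7L2 had 15.8, 16.9 and 15.7 CPM on day 1, against 143, 152 and 86.1 CPM on day 0. The log2 fold changes were 4.28 (SE 0.34) for TCF7, 5.94 (SE 0.91) for LEF1, -3.89 (SE 0.29) for TCF7L1 and -2.98 (SE 0.30) for TCF7L2, and the days did not overlap for any of the 4. AXIN2 and NKD1, intracellular feedback inhibitors, rose by 3.70 (SE 0.40) and 6.76 (SE 0.47). NKD1 had 594, 570.1 and 512 CPM on day 1, against 4.45, 4.33 and 6.72 CPM on day 0. In the list of 31 intracellular feedback genes, 10 (32.3%) rose and 3 (9.68%) fell, beside 5.49% and 4.88% of all genes. With each library left out, 8 to 10 rose and 3 fell. The other 18 were not called, among them CTNNB1, APC, AXIN1, GSK3A, GSK3B, DVL1, DVL2 and DVL3.

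**Figure D4:**
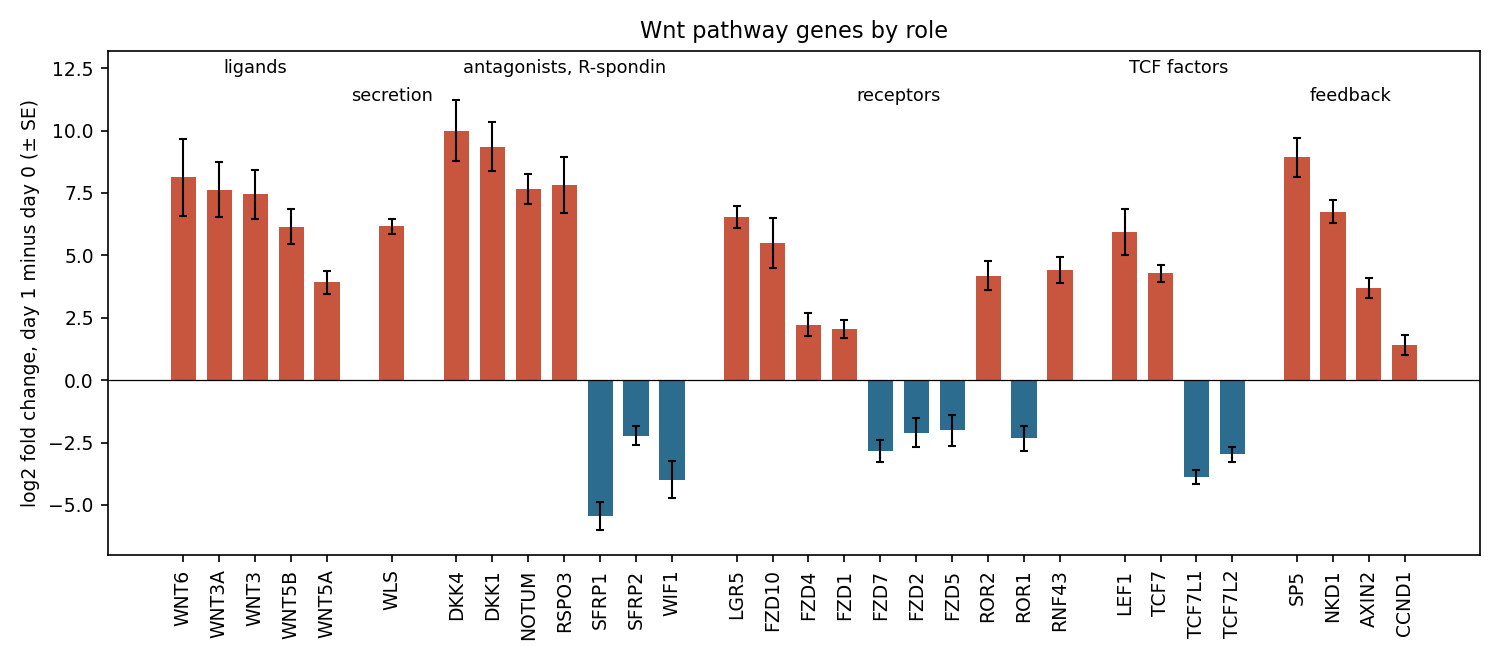
Log2 fold change of Wnt pathway genes, day 1 minus day 0, grouped by role, with bars above 0 for genes higher on day 1, bars below 0 for genes lower on day 1 and error bars of ± SE. All WNT ligands drawn are above 0, while antagonists, receptors and TCF factors fall on both sides, from 9.99 for DKK4 to -5.45 for SFRP1.

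More ligand genes of the TGF-beta family rose than fell. Of 32 tested, 6 (18.75%) rose and 1 (3.125%) fell, beside 5.49% and 4.88% of all genes. The median was 1.25 on the log2 scale, and 5 to 7 rose with each library left out. NODAL had 492, 461 and 282 CPM on day 1, against 2.89, 2.05 and 3.77 CPM on day 0, and BMP4, a mesoderm-inducing ligand, had 45.9, 59.7 and 37.2 CPM on day 1, against 5.14, 5.10 and 4.62 CPM on day 0. BMP2 (4.95, SE 0.41) and TGFB1 (3.34, SE 0.35) rose on the log2 scale. The member that fell was INHBA, the subunit of activin A itself: day 1 libraries held 4 counts in all, at 0.0277, 0.0294 and 0 CPM, and day 0 libraries 404 counts, at 1.18, 1.59 and 1.37 CPM (adjusted p = 0.00509, 0.0308 without day 1 replicate 4). FST, the gene of follistatin, which binds and neutralises activin, had 486, 417 and 391 CPM on day 1, against 23.7, 13.98 and 13.0 CPM on day 0, and rose by 4.68 (SE 0.56). CER1, a secreted inhibitor of Nodal and BMP, had 382, 409 and 226 CPM on day 1, against 13.3, 12.9 and 16.4 CPM on day 0. LEFTY1 and LEFTY2, Nodal inhibitors that also serve as its targets, overlapped between the days and were not called: LEFTY2 had 5.41, 2.94 and 10.4 CPM on day 1, against 0.426, 0.397 and 5.59 CPM on day 0. Of 20 tested receptor genes of the family 2 (10%) rose and 1 (5%) fell, beside 5.49% and 4.88% of all genes (1 to 2 and 0 to 1 with each library left out). BAMBI, a pseudoreceptor that blocks BMP and activin signals, had 191, 192 and 128 CPM on day 1, against 23.4, 20.5 and 21.7 CPM on day 0 (log2 fold change 2.96, SE 0.52). SMAD6, an inhibitory SMAD of BMP signalling, rose by 3.39 (SE 0.50). In the list of 19 SMAD genes and feedback genes, 4 (21.1%) rose and 0 fell. Of these 4 calls, only that of SMAD6 stood with each library left out.

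Fibroblast growth factor genes moved in both directions. FGF2, which pluripotent cells depend on, had 43.8, 46.1 and 41.0 CPM on day 1, against 326, 283 and 106 CPM on day 0, and fell by 2.45 on the log2 scale (SE 0.55). FGF4 and FGF8, which streak cells need for migration in the mouse, were higher. FGF4 had 28.9, 19.3 and 21.2 CPM on day 1, against 0.189, 0.159 and 0.114 CPM on day 0, and FGF8 had 12.4, 6.70 and 9.76 CPM on day 1, against 0.189, 0.0596 and 0.209 CPM on day 0. FGF10 rose by 7.18 (SE 0.61). Of 20 tested ligand genes, 6 (30%) rose and 1 (5%) fell, beside 5.49% and 4.88% of all genes. With each library left out, 4 to 5 rose and 1 to 2 fell. FGFR2 had 9.46, 9.84 and 9.92 CPM on day 1, against 77.1, 79.0 and 85.0 CPM on day 0 (log2 fold change -3.04, SE 0.27), and FGFR1 had 224, 211 and 192 CPM on day 1, against 207, 405 and 502 CPM on day 0, and was not called (adjusted p = 0.272). The FGFR2 values lay close together within each day and did not overlap between days, whereas those of FGFR1 overlapped.

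Receptors and their ligands moved in opposite directions in a pair of further systems. APELA, a peptide hormone secreted by human embryonic stem cells and listed in the table as LOC100506013, had 0.277, 0.382 and 0.290 CPM on day 1, against 184, 108 and 39.2 CPM on day 0 (log2 fold change -8.45, SE 1.27, -7.85 without day 0 replicate 1). Its receptor gene APLNR, a mark of early mesendoderm, had 493, 468 and 452 CPM on day 1, against 4.43, 3.50 and 3.25 CPM on day 0 (log2 fold change 6.98, SE 0.68). PDGFA had 6.55, 7.75 and 5.85 CPM on day 1, against 101, 71.8 and 48.2 CPM on day 0, whereas its receptor gene PDGFRA, a mark of mesoderm and primitive endoderm, had 55.3, 70.8 and 62.7 CPM on day 1, against 7.71, 6.61 and 3.81 CPM on day 0. The hormone gene ADM, of adrenomedullin, fell by 4.14 on the log2 scale (SE 0.52). ALKAL2, a ligand of the receptor kinase ALK listed as FAM150B, had 0.0832, 0.0294 and 0.0362 CPM on day 1, against 10.9, 3.69 and 2.25 CPM on day 0. FLT1, a receptor of VEGF, had 19.8, 20.2 and 24.2 CPM on day 1, against 175, 242 and 172 CPM on day 0, and ERBB2 had 132, 145 and 147 CPM on day 1, against 304, 493 and 777 CPM on day 0. EPHA4 and EPHA2, receptors of cell contact, rose by 3.45 (SE 0.35) and 2.85 (SE 0.53). Among immune-type receptors, TNFRSF19 (4.68, SE 1.01) and CNTFR (4.65, SE 0.88), the CNTF receptor subunit, rose, and TNFRSF9 had 22.0, 12.6 and 13.1 CPM on day 1 and 4 counts in all on day 0. EDAR, the ectodysplasin receptor, had 27.5, 22.3 and 30.9 CPM on day 1, against 0, 0.139 and 0.0190 CPM on day 0.

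Guidance systems that steer migrating cells also changed. SEMA3C, a secreted semaphorin, had 50.5, 48.9 and 28.9 CPM on day 1, against 0.805, 1.05 and 0.438 CPM on day 0, and its receptor genes NRP1 and PLXNA2 rose with it. NRP1 had 209, 225 and 133 CPM on day 1, against 8.31, 9.79 and 8.49 CPM on day 0, and PLXNA2 had 81.8, 74.7 and 62.0 CPM on day 1, against 2.53, 4.11 and 6.39 CPM on day 0. NTN1, the gene of netrin-1, had 104, 81.9 and 86.9 CPM on day 1, against 1.61, 2.38 and 5.10 CPM on day 0, and the netrin receptor gene UNC5C rose by 3.14 (SE 0.35). A pair of membrane-bound semaphorin genes went the other way: SEMA4A had 0.860, 0.587 and 1.21 CPM on day 1, against 14.7, 12.31 and 19.4 CPM on day 0, and SEMA6D fell by 3.79 (SE 0.40). Of 37 tested guidance ligands 7 (18.9%) rose and 5 (13.5%) fell, beside 5.49% and 4.88% of all genes. There were 11 higher without day 0 replicate 4 and 3 lower without day 1 replicate 1 or 2. The guidance receptor list had 6 (27.3%) higher and 4 (18.2%) lower of 22 tested (3 to 7 and 0 to 4 with each library left out). UNC5A, UNC5B and PLXNA4, of the same families as UNC5C and PLXNA2, were called lower. Each of these calls was lost without day 1 replicate 1.

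Of 65 tested cadherin and junction genes, 7 rose and 7 fell (10.8% each), beside 5.49% and 4.88% of all genes. With a library left out 4 to 7 rose, with 4 without day 0 replicate 2 or any day 1 library. The lower count was 4 without day 0 replicate 2, and 2, 3 and 3 without day 1 replicates 1, 2 and 4. CDH2, the gene of N-cadherin, had 854, 839 and 835 CPM on day 1, against 105, 95.0 and 85.3 CPM on day 0, with a log2 fold change of 3.15 (SE 0.24), and CDH11 had 353, 273 and 301 CPM on day 1, against 26.0, 20.8 and 17.9 CPM on day 0. CDH1, the gene of E-cadherin, had 266, 290.1 and 270.1 CPM on day 1, against 229, 382 and 294 CPM on day 0, with overlap and no call (adjusted p = 0.944). CLDN3, a claudin of epithelial tight junctions, had 0.166, 0.0881 and 0.344 CPM on day 1, against 3.46, 1.99 and 6.36 CPM on day 0, and was called lower. EPCAM had 241, 269 and 206 CPM on day 1, against 933, 494 and 264 CPM on day 0, and also missed the threshold (adjusted p = 0.0845). Some repressors of the epithelial state were higher. SNAI1 had 77.5, 77.0 and 57.0 CPM on day 1, against 8.26, 6.49 and 4.72 CPM on day 0, and ZEB2 (4.45, SE 0.52) and ZEB1 (1.67, SE 0.40) rose on the log2 scale. In all, 3 of 9 tested repressors (33.3%) rose whichever library was left out. The 1 that fell (11.1%) was SNAI3, a call lost without day 1 replicate 1 or 2. VIM, the gene of the mesenchymal filament vimentin, had 832, 740.3 and 600.3 CPM on day 1, against 120.0, 55.6 and 85.8 CPM on day 0.

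In the integrin list, 4 of 24 tested genes (16.7%) rose and 2 (8.33%) fell, beside 5.49% and 4.88% of all genes (4 and 1 to 2 with each library left out). ITGA6, which binds laminin and is abundant on pluripotent cells, had 45.4, 46.3 and 60.8 CPM on day 1, against 478, 607 and 338 CPM on day 0, and ITGA5, which binds fibronectin, had 163, 154 and 171 CPM on day 1, against 16.7, 17.9 and 32.8 CPM on day 0. Some fibrillar and beaded collagens were higher. Of 42 tested collagen genes, 8 (19.05%) rose and 2 (4.76%) fell, beside 5.49% and 4.88% of all genes, so the lower share was near that of all genes. With each library left out, 6 to 11 rose and 1 to 2 fell. COL1A2 had 689.6, 758 and 600.3 CPM on day 1, against 47.7, 51.7 and 66.3 CPM on day 0, and COL5A1 had 218, 215 and 208 CPM on day 1, against 7.57, 11.6 and 21.9 CPM on day 0. HAS2, which makes the hyaluronan of migrating mesenchyme, had 283, 288 and 197 CPM on day 1, against 18.6, 19.8 and 12.7 CPM on day 0, and its link protein HAPLN1 rose by 3.51 (SE 0.55). FBN2, of fibrillin-2, rose by 3.83 (SE 0.49). The protease inhibitor gene SERPINE2 had 1829, 2019.8 and 1553 CPM on day 1, against 84.1, 71.8 and 94.9 CPM on day 0 (log2 fold change 4.43, SE 0.40).

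Of 26 tested glycolysis genes, 2 (7.69%) rose and 0 fell, beside 5.49% and 4.88% of all genes, with a median of 0.11 on the log2 scale, and both that rose are transporters. SLC2A3, the glucose transporter GLUT3, had 3575, 3283 and 2282 CPM on day 1, against 778, 1000.2 and 1022 CPM on day 0 (log2 fold change 1.71, SE 0.31). SLC16A3, the lactate exporter MCT4, had 14.1, 9.81 and 19.2 CPM on day 1, against 0.308, 0.357 and 1.69 CPM on day 0, a call lost without day 0 replicate 1 or 2. The lactate dehydrogenase gene LDHA had 1152, 1194 and 786 CPM on day 1, against 564, 482 and 577 CPM on day 0, with no overlap, and missed the threshold (adjusted p = 0.233). Of 78 tested respiratory chain genes, 0 rose and 2 (2.56%, beside 4.88% of all genes) fell (COX7C and NDUFA4), with a median of -0.54. That count rested on single libraries: it was 0 without day 0 replicate 1 or any day 1 library, 10 without day 0 replicate 2 and 11 without day 0 replicate 4. COX7C had 68.8, 70.1 and 80.3 CPM on day 1, against 668, 84.9 and 145 CPM on day 0, where replicate 1 was highest, and its log2 fold change of -2.03 was -0.66 without that library. The count for cytosolic ribosomal protein genes depended on the same libraries, with 4 of 89 (4.49%) lower, beside 4.88% of all genes. It was 0 without day 0 replicate 1 or any day 1 library, and 8 without day 0 replicate 2 or 4. Of 10 tested genes of the pentose phosphate route, 0 were called, with a median of 0.17.

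Single genes of polyamine and amino acid supply rose or fell. ODC1, the rate-limiting enzyme of polyamine synthesis, had 4786, 5345 and 3496 CPM on day 1, against 641, 766 and 543 CPM on day 0, with a log2 fold change of 2.81 (SE 0.32) and an adjusted p of 3.81e-05. SLC7A5, an importer of large neutral amino acids, had 2562, 1579 and 1743 CPM on day 1, against 216, 263 and 669.9 CPM on day 0 (log2 fold change 2.36, SE 0.52), with an adjusted p of 0.0517 without day 0 replicate 1 and a log2 fold change of 3.05 without day 0 replicate 4. The arginine and lysine transporter gene SLC7A2 fell by 2.06 (SE 0.46) and SLC38A4 by 3.40 (SE 0.72). Of 51 tested transport and glutamine genes, 2 (3.92%) rose and 7 (13.7%) fell, beside 5.49% and 4.88% of all genes. With each library left out, 1 to 3 rose and 4 to 6 fell, with 1 higher without day 0 replicate 1 and 4 lower without day 1 replicate 2.

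Some sterol genes were lower on day 1. Of 33 tested members of the cholesterol list, 0 rose and 8 (24.2%) fell, beside 5.49% and 4.88% of all genes. The median was -0.84 on the log2 scale. The count of lower genes was 5 without day 0 replicate 1 or day 1 replicate 1 or 2. Of the 8, 5 are enzymes of synthesis. FDFT1, squalene synthase, had 391, 405 and 329.6 CPM on day 1, against 1293, 919 and 958 CPM on day 0 (log2 fold change -1.49, SE 0.27), and ACAT2 had 123, 143 and 128 CPM on day 1, against 470.2, 255 and 368 CPM on day 0. The other 3 serve export and uptake and are targets of the sterol-sensing LXR receptors: ABCA1 and ABCG1, cholesterol exporters, and MYLIP, which degrades the LDL receptor. ABCA1 had 5.85, 7.08 and 6.77 CPM on day 1, against 73.6, 114 and 44.6 CPM on day 0, ABCG1 fell by 4.30 (SE 0.93) and MYLIP by 1.99 (SE 0.43). The base medium also differed between the days, and its part cannot be told apart. Of 30 tested genes of fatty acid synthesis 2 (6.67%) rose and 6 (20%) fell, beside 5.49% and 4.88% of all genes. However, 1 fell without day 0 replicate 1, and 3 without day 1 replicate 2. The lower count was 2 without day 0 replicate 2 or day 1 replicate 1 or 4.

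Of 19 tested genes of retinoic acid metabolism, 4 (21.1%) rose and 2 (10.5%) fell. There were 2 higher without day 0 replicate 2 or day 1 replicate 1. The lower count was 0 without day 1 replicate 2 or 4 and 1 in the other leave-outs. Of 36 tested sphingolipid and glycolipid genes, 2 (5.56%) rose and 3 (8.33%) fell, with 1 lower without day 1 replicate 1 or 2. Of 39 tested redox genes, 1 (2.56%) rose and 2 (5.13%) fell, with 2 higher without day 0 replicate 1, 4 lower without day 0 replicate 4 and 1 lower without day 0 replicate 1 or day 1 replicate 1 or 2. Shares over all genes were 5.49% and 4.88%, and the genes below are single members. ALDH1A2, the enzyme that makes retinoic acid in mesoderm, had 10.7, 19.9 and 9.36 CPM on day 1, against 0.402, 0.159 and 0.0761 CPM on day 0. LRAT, which stores retinol as esters, had 10.3, 8.78 and 6.17 CPM on day 1, against 276, 218 and 56.0 CPM on day 0, a call lost without day 1 replicate 2 or 4 (highest adjusted p 0.0565). B3GALT5, which makes the stem cell surface antigen SSEA-3, had 1.498, 1.23 and 1.41 CPM on day 1. Its day 0 values were 7.41, 28.1 and 21.0 CPM. A4GALT, which acts on the same route to make globotriaosylceramide, had 24.1, 23.6 and 18.6 CPM on day 1, against 1.30, 4.25 and 6.56 CPM on day 0. GSTO1, an omega-class glutathione transferase, had 246, 380.3 and 262 CPM on day 1, against 62.1, 19.1 and 18.2 CPM on day 0 (log2 fold change 3.16, SE 0.45, 3.99 without day 0 replicate 1), and HMOX1, heme oxygenase 1, fell by 2.41 (SE 0.40). IDO1, which degrades tryptophan, had 0.721, 0.793 and 0.688 CPM on day 1, against 55.1, 30.7 and 21.7 CPM on day 0, and fell by 5.61 (SE 0.44).

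**Figure D5:**
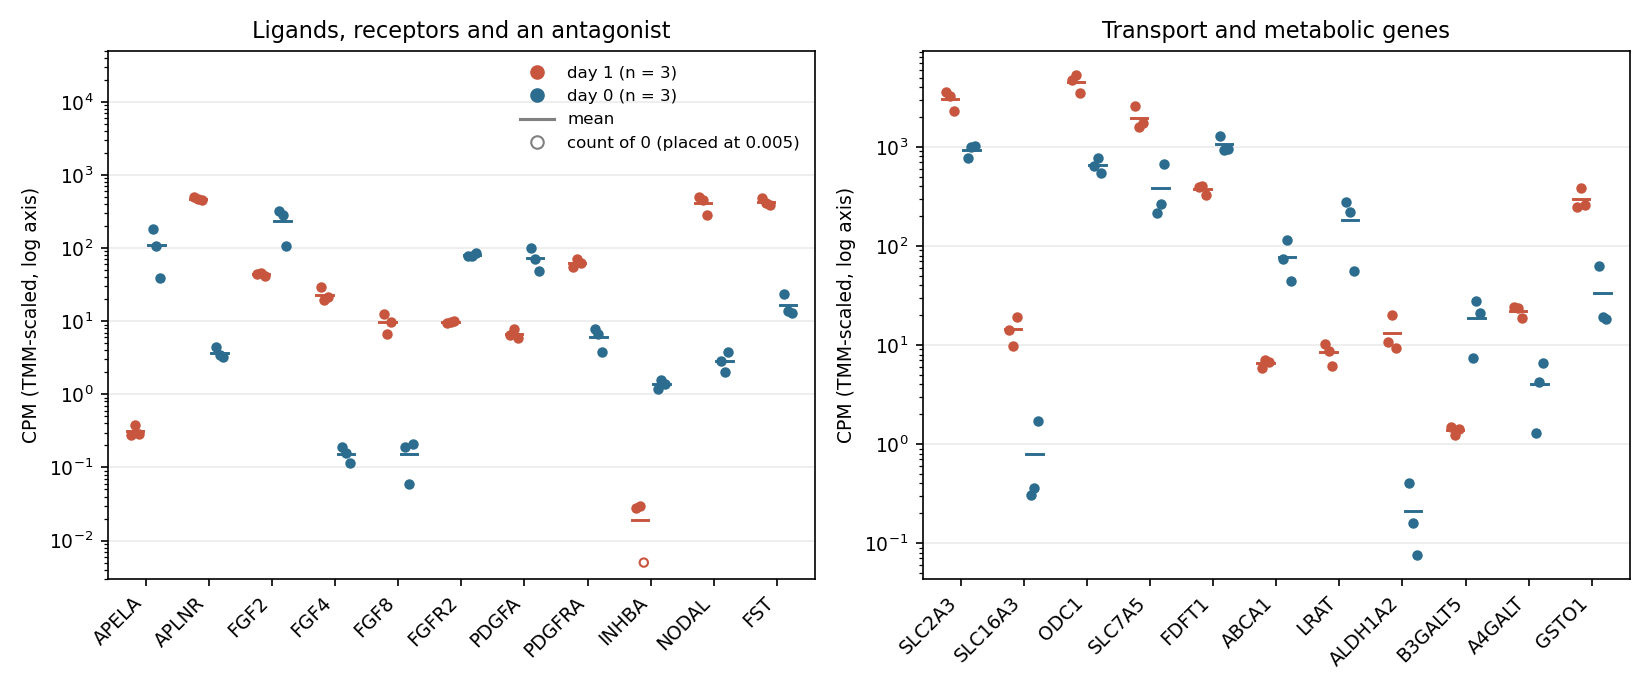
CPM on a log axis of ligands, receptors and follistatin (left) and of transport and metabolic genes (right), a point per library and a line at the mean, day 1 to the left of day 0, with a count of 0 as an open circle at 0.005. APELA and APLNR change in opposite directions, with APELA at most 0.382 CPM on day 1 and APLNR at least 452 CPM, and PDGFA and PDGFRA cross in the same way.

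Genes of other lineages gave a mixed picture beside the streak genes. Shares over all genes were 5.49% higher and 4.88% lower. Of 19 tested definitive endoderm genes, 9 (47.4%) rose and 2 (10.5%) fell. With each library left out, 6 to 8 rose and 1 to 2 fell. FOXA2, a pioneer factor of endoderm, was among those that fell. It had 1.91, 2.50 and 1.503 CPM on day 1, against 14.9, 9.14 and 7.52 CPM on day 0. That call was lost without day 0 replicate 1 or day 1 replicate 4. Of 26 tested mesoderm genes, 13 (50%) rose and 1 (3.85%) fell. In the leave-outs 9 to 11 of them rose and 0 to 1 fell. In the trophoblast and amnion list, 5 of 13 (38.5%) rose and 1 (7.69%) fell. The lower count was 0 whichever library was left out. The higher count of 5 became 2 without day 0 replicate 1 or 2 and 3 without any day 1 library. Those 5 include CDX2 and HAND1, which the streak list holds too, and GATA3, at 3.72, 2.94 and 3.89 CPM on day 1, against 1.16, 0.675 and 0.457 CPM on day 0, whose call was lost whichever library of the 2 days was left out (lowest adjusted p 0.0667). Of 14 neural crest genes, 3 (21.4%) rose and 2 (14.3%) fell, and FOXD3 was among those that fell. The counts were 2 to 3 and 1 to 2 with each library left out.

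Beyond these lists, the largest increases among genes of at least 5 CPM included the noncoding RNA gene LINC01124, listed as LOC440925, with 45.8, 41.9 and 47.6 CPM on day 1, against 0.0473, 0.119 and 0.0761 CPM on day 0. Among the largest decreases, RIPOR2, an inhibitor of the small GTPase RHOA listed as FAM65B, had 1.97, 1.70 and 2.06 CPM on day 1, against 90.7, 134 and 80.0 CPM on day 0. SORBS2, an adaptor of actin fibres, had 0.139, 0.176 and 0.109 CPM on day 1, against 20.1, 14.8 and 6.41 CPM on day 0, and SPTSSB, a subunit of serine palmitoyltransferase, had 0.0555, 0.147 and 0.109 CPM on day 1, against 12.5, 9.57 and 5.46 CPM on day 0. GRIA4, an AMPA-type glutamate receptor subunit, fell by 5.98 on the log2 scale (SE 0.72), and by 6.60 without day 1 replicate 4. The largest changes were chosen only among genes whose days did not overlap, so the separation of the days in these genes is no further result.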

How the data were processed

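Polyadenylated RNA was sequenced as directional libraries, per the labels' protocols, and the authors deposited 1 table of raw read counts per gene for the 15 libraries. Reads had been aligned with TopHat2 2.0.14 to hg19, per the submitters' processing notes. How the counting was done (program, annotation, strand setting) is not given in the sources used here. All counts are even, so both mates of a pair seem to have been counted. Counts on overlapping or antisense genes and on copies with pseudogenes, POU5F1 and NANOG among them, may be shared.

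The table held 23398 entries, of which 44 identical repeats were dropped and 8 repeated entries were summed, leaving 23346 symbols. Libraries were grouped by the labelled day. All 15 libraries entered 1 fit with edgeR 4.0.16 (TMM factors, filterByExpr by day, quasi-likelihood F-test) in R 4.3.3, and the day 1 minus day 0 contrast was adjusted by Benjamini-Hochberg over 17401 genes. Every adjusted p is from this test unless DESeq2 is named. Each SE was derived as the size of the log2 fold change over sqrt(F). A gene at 0 on one day was set against a floor of 3 counts per library. If both mates were counted, a floor of 3 read pairs would be higher and would give smaller folds. The fit was tested on simulated data. Alternatives were DESeq2 1.42.0, DESeq2 size factors or library totals for scaling, no filter or a CPM filter, halved counts, a replicate block, a 1.5-fold threshold, the 6 libraries alone and each library left out. Tables and figures used Python 3.11.15, pandas 2.3.3, numpy 2.4.6 and matplotlib 3.10.9.

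The members and the 69 lists were chosen with earlier results of these data known. Named genes were, in each direction, the 14 called genes of largest change that reached 5 CPM on the higher day and did not overlap, up to 4 called members of each list with at least 1 CPM, or its 2 highest where none was called, a fixed set, and further genes added after their values were seen. Names were matched to RefSeq for 320 of 321 genes, and 13230 of 17401 tested genes had a promoter in the RefSeq table (GRCh38.p14).

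Results on a few genes are not reported here.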

Additional observations from a re-analysis of the deposited data

How the results depend on the processing

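The direction of each of the 301 called genes among the 321 named held under every alternative run, and 205 of them kept the call under each, while 96 lost it under at least 1. Counts of all called genes kept within 1.5 times under other scalings, other filters, halved counts and the 6 libraries alone. DESeq2 called 1447 genes lower, a test against a 1.5-fold change called 495 lower, and the cause of the DESeq2 difference was not tested. The replicate block gave 1608 higher and 1305 lower, and with the 6 libraries alone, a fit chosen after seeing the data, the replicate block gave 1704 higher and 1557 lower. Same-numbered libraries of the 2 days did not all deviate together (r across genes 0.0379, 0.577 and 0.287 for replicates 1, 2 and 4), and day 1 replicate 1 went best with day 0 replicate 4 (0.308), so the numbers were not taken to pair the samples. With each library left out, 624 to 1484 genes were higher and 380 to 1155 lower. Sign changes were seen for 7 genes that were not called. POU5F1 was 0.23 under the replicate block, 0.026 with it in the 6 libraries, and -0.41 to 0.53 with a library left out. In the same leave-outs SOX17 ran from -0.83 to 0.024, PGD from -0.0014 to 0.54, TKT from -0.84 to 0.031, HOXD11 from -5.57 to 1.79, HOXD3 from -2.55 to 5.03 and CDH1 from -0.29 to 0.066. The median log2 fold change over all genes was -0.02 with TMM, -0.05 with DESeq2 size factors and 0.05 with library totals. Each day had 3 libraries, and genes near the floor of 3 counts are given mainly as levels or as folds against that floor. The HOX list median and the leave-out values of HOXD3 and HOXD11 also rest on genes near the floor.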
